A study of Sus scrofa with 41 samples.

Results

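Low and high RNA integrity were compared in psoas major muscle, the tenderloin, of Danbred Landrace pigs. The low RIN group held the 9 Landrace pigs with an RNA integrity number (RIN) label of 7.7 or less, and the high RIN group the 8 Landrace pigs with a RIN label of 8.2 or more. These 17 pigs were part of 28 Landrace pigs and of 41 pigs in all. The other 11 Landrace pigs had RIN labels from 7.8 to 8.1 (middle RIN), and 13 pigs were Danbred Duroc. All were untreated males that had been fed ad libitum for a feed efficiency trial, and each library was polyA RNA of 1 pig, from muscle taken after slaughter and kept in RNAlater. RIN ranged from 6.5 to 7.7 in the low RIN group and from 8.2 to 8.3 in the high RIN group. Sampling age was 148 to 160 days in the low RIN group and 147 to 160 days in the high RIN group (difference 2.74 days, exact permutation test, two-sided, p = 0.225, adjusted over both covariates p = 0.225). Feed conversion ratio (FCR) was 2.12 ± 0.0682 (SD, n = 9) against 2.06 ± 0.0662 (SD, n = 8) (exact permutation test, two-sided, p = 0.0760, adjusted p = 0.152). The groups were spread unevenly over the labelled batches, for which the study's methods give the slaughter day. Batch 5 held 5 low RIN pigs and 1 high RIN pig, batch 2 held 2 and 5, batch 3 held 1 and 2, and batch 4 held only low RIN pig 8. The 2 low RIN pigs of batch 2 were pig 1 (RIN 6.5) and pig 3 (RIN 7.7). The 5 matched genes of the skeletal muscle identity list took 11.3% to 16.1% of the counts on genes in the low RIN group and 14.0% to 17.7% in the high RIN group, so the labelled tissue showed in every library.

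RIN scores the fragmentation of total RNA from an electropherogram, mainly from the large ribosomal RNAs, on a scale on which a higher number means more intact RNA. In a polyA library the molecules are caught by their tail, so the part of a broken transcript far from the tail is not caught with it. Transcripts also differ in how fast they are lost in tissue: messengers of mitochondrial and ribosomal proteins are known as stable, and those of immediate-early genes as short-lived. Psoas major is a muscle of mixed fibre type that is rich in mitochondria.

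More read pairs fell outside annotated genes at low RIN. The share of read pairs that aligned to 1 place but to no gene was lowest 8.94%, median 9.82% and highest 16.2% in the low RIN group. In the high RIN group it was lowest 7.53%, median 8.31% and highest 10.9%. The groups overlapped, and low RIN pig 9 (RIN 6.6) stood highest of all. The means were 10.7% ± 2.32 (SD, n = 9) and 8.58% ± 1.02 (SD, n = 8), a difference of 2.10 percentage points (exact permutation test, two-sided, p = 0.0126, adjusted over 7 measures p = 0.0187). Without the 2 pigs with RIN below 7 the difference was 1.23 percentage points (exact permutation test, p = 0.0334). When pigs were permuted within batches only, p was 0.0582 (exact permutation test, two-sided). The difference was 1.92 percentage points in batch 2 and 2.46 in batch 5, but −0.490 in batch 3, where 1 low RIN pig stood against 2 high RIN pigs.

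**Figure D1:**
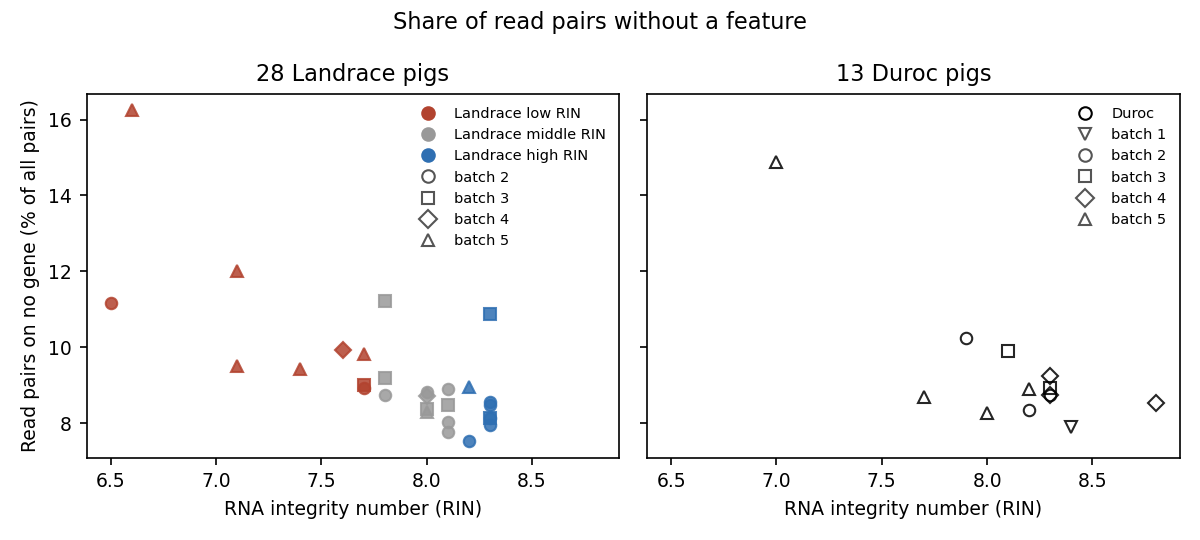
Share of read pairs on no gene (vertical axis, % of all read pairs of the library) against RIN (horizontal axis), 1 point per pig, for 28 Landrace pigs (left, coloured by RIN group) and 13 Duroc pigs (right), with the marker shape for the slaughter batch. The highest Landrace point, at 16.2%, is low RIN pig 9, and the high RIN pig at 10.9% is in batch 3.

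Across all 28 Landrace pigs the share of pairs on no gene fell with RIN (Pearson r = −0.745, permutation p = 6e-05, adjusted p = 0.00012, and Spearman rho = −0.703, permutation p = 8e-05, adjusted p = 0.00016). Without the 2 pigs farthest from the median RIN, which were the pigs below RIN 7, r was −0.598. Within batches r was −0.901 in batch 2 (n = 12), −0.128 in batch 3 (n = 7) and −0.816 in batch 5 (n = 7), so the relation was not seen in batch 3. It was −0.530 in batch 2 (n = 11) and −0.686 in batch 5 (n = 6) without the 2 pigs below RIN 7. In the 13 Duroc pigs r was −0.809 (permutation p = 0.0108) and rho −0.421 (permutation p = 0.153). Without the 2 Duroc pigs farthest from their median RIN, r was −0.316, so that the Duroc relation rested on those pigs.

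Of the other classes of read pairs, some differed and some did not pass the test. Pairs that overlapped more than 1 gene made up 7.77% ± 0.318 (SD, n = 9) at low RIN and 7.29% ± 0.347 (SD, n = 8) at high RIN (exact permutation test, two-sided, p = 0.0133, adjusted p = 0.0187). In batch 5 this difference was −0.519 percentage points, against 0.852 in batch 2 and 0.920 in batch 3. Pairs counted on genes made up 76.6% ± 2.78 (SD, n = 9) against 79.6% ± 1.14 (SD, n = 8) (exact permutation test, two-sided, p = 0.00230, adjusted p = 0.0123), and this held within batches (exact permutation within batches, p = 0.0132). The groups' differences in pairs that aligned to several places (0.252 percentage points) or to none (0.180) did not pass the test (exact permutation tests, p = 0.0757 and p = 0.0637). Genes with at least 5 counts numbered 12356 ± 305 (SD, n = 9) at low RIN and 12837 ± 247 (SD, n = 8) at high RIN (exact permutation test, two-sided, p = 0.00477, adjusted p = 0.0123). Permuted within batches this difference did not pass (exact permutation, p = 0.0582), and in batch 5 it was −32 genes. Counts on genes averaged 24395132 at low and 25510010 at high RIN (exact permutation test, two-sided, p = 0.00527, adjusted p = 0.0123). The number of genes with at least 5 counts was not adjusted for this difference in depth.

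At the level of single genes, 10690 genes were tested with edgeR's quasi-likelihood test in a model of RIN group, FCR, age and batch. In this model 1 gene passed a false discovery rate (FDR) of 0.1, which is 0.00935% of the genes tested. An unadjusted p under 0.05 was reached by 1129 genes with higher (10.6%) and 817 genes with lower (7.64%) counts at low RIN, where 534.5 in all would be expected by chance. In this model low RIN pig 8 has a batch of its own and does not enter the comparison, and 10 residual degrees of freedom are left. DESeq2, on genes with at least 5 counts in every pig, called 558 genes higher and 247 lower in the same model, and limma called 1.

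Other models called many more genes, and some are used below beside the first. They were listed as alternatives, or added as ones without the 2 pigs below RIN 7, and were brought forward after the counts were seen. With RIN group as the only term, edgeR called 1821 genes higher (17%) and 1642 lower (15.4%) at low RIN, 32.4% in all. In that model batch cannot be told apart from RIN, since most of the low RIN pigs were in batch 5. With RIN as a number, and FCR, age and batch in the model, the same 17 pigs gave 1928 genes higher (18%) and 1929 lower (18%) with falling RIN, 36.1% in all. That count rested on the lowest values: without the 2 pigs below RIN 7, at 6.5 and 6.6, it was 1 gene (0.00941%), and RIN group with FCR, age and batch also called 1 (0.00941%). RIN group alone gave 1454 and 1277 genes without them (13.7% and 12%, 25.7% in all). With RIN as a number, FCR, age and batch in all 28 Landrace pigs, 2545 genes were called higher (23.1%) and 2181 lower (19.8%) of 11020, which was 42.9%. Without the 2 pigs below RIN 7 there were 545 higher (4.95%) and 305 lower (2.77%) of 11002, 7.73% in all. With the middle pigs as a group between the others, low against high RIN gave 1473 genes higher (13.4%) and 972 lower (8.82%), 22.2% in all. In batch 2 alone, with 2 low and 5 high RIN pigs, 603 genes were called (5.53%). Low RIN pig 1, below RIN 7, was 1 of these 2 low RIN pigs, so this fit did not leave out the lowest values. Scaled by library size only, the first model called 6 genes higher (0.0561%) and 242 lower (2.26%), 2.32% in all, which shifted the all-gene median to −0.27. The calls of RIN group alone and of RIN as a number in the 17 pigs shared 2307 genes (66.6% of the first and 59.8% of the second), and each shared gene had the same direction in both. These models share the same pigs and are not independent of each other. In what follows a log2 change comes from the model with FCR, age and batch unless another is named, positive values mean higher at low RIN, and values per RIN are per unit of falling RIN.

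The gene that passed in the model with FCR, age and batch was TMT1B (ENSSSCG00000036547), which encodes a membrane-bound thiol methyltransferase. Its level was lowest 16.9, median 33.9 and highest 41.8 CPM, counts scaled to the normalised library total, in the low RIN group. In the high RIN group it was lowest 13.9, median 18.1 and highest 24.4 CPM. All low RIN pigs but pig 8 lay above every high RIN pig. The log2 change was 1.05 ± 0.14 (SE, edgeR, FDR = 0.0251). The FDR rose to 0.208 without low RIN pig 1, 0.130 without high RIN pig 1 and 0.113 without high RIN pig 7.

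The 13 protein genes of the mitochondrial genome, which encode core subunits of the respiratory chain and ATP synthase, all had log2 changes above 0 at low RIN. With RIN group alone 13 of 13 were called higher and 0 lower (17% and 15.4% of all genes), and with RIN as a number again 13 and 0 (18% and 18% of all genes). Their log2 changes ran from 0.49 to 0.94, with a median of 0.73 beside −0.02 for all genes tested. In the model with FCR, age and batch none of the 13 passed the FDR, and 11 had an unadjusted p under 0.05. In batch 2 alone (2 low against 5 high RIN pigs) 3 were called higher, where 2.9% of all genes were. Of these low RIN pigs, pig 1 (RIN 6.5) had 20.5% of its counts on the 13 genes and pig 3 (RIN 7.7) had 12.2%. With all 28 pigs less the 2 below RIN 7, 4 of 13 were called higher (4.95% of all genes). Without these 2 pigs the median in the model with FCR, age and batch was 0.36, with all 13 genes above 0, and RIN as a number in the remaining low and high RIN pigs called 0 of 13 (8 at an unadjusted p under 0.05 in edgeR).

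ND3, a subunit of complex I (chromosome MT, 10653 to 10998 in Sscrofa11.1), stood at lowest 2239, median 3910 and highest 8320 CPM in the low RIN group. In the high RIN group it stood at lowest 1570, median 2013 and highest 3150 CPM, so that 8 of 9 low RIN pigs exceeded every high RIN pig. Its log2 change was 0.94 ± 0.27 (SE, edgeR, FDR = 0.176), and 1.08 with RIN group alone (FDR = 0.00490). COX3, a core subunit of complex IV (chromosome MT, 9800 to 10583), stood at lowest 18884, median 31342 and highest 67560 CPM at low RIN, and at lowest 13093, median 17620 and highest 23734 CPM at high RIN. Here too 8 of 9 low RIN pigs lay above all high RIN pigs, and the high RIN pig of batch 5, at 23455 CPM, was close to the highest of its group. The smallest changes were those of ND5 (0.49 ± 0.30, SE, FDR = 0.386) and ND6 (0.49 ± 0.31, SE, FDR = 0.398), both complex I subunits. ND6 is the only protein gene on the other strand of the mitochondrial genome, and the counting did not use strand.

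Taken as a share of all counts on genes, the 13 genes made up lowest 12.2%, median 16.0% and highest 29.4% in the low RIN group. In the high RIN group they made up lowest 9.21%, median 11.9% and highest 16.2%, and in the middle RIN group the median was 13.6%. The groups overlapped. Within batches the means were 16.3% against 11.2% in batch 2, 17.4% against 13.6% in batch 3 and 18.4% against 14.1% in batch 5, the low RIN group being higher in each. Of the slow-fibre contractile genes, 8 members had a median log2 change of 0.65 (0.11 without the 2 pigs below RIN 7), with 2 called higher with RIN group alone (17% of all genes were). With RIN as a number 5 of the 8 were called higher and 0 lower (18% and 18% of all genes), and 0 without the 2 pigs below RIN 7. The summed share of the 8 genes was 0.768% to 1.34% at low RIN and 0.647% to 1.55% at high RIN. The part of fibre type in the mitochondrial values was not tested.

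**Figure D2:**
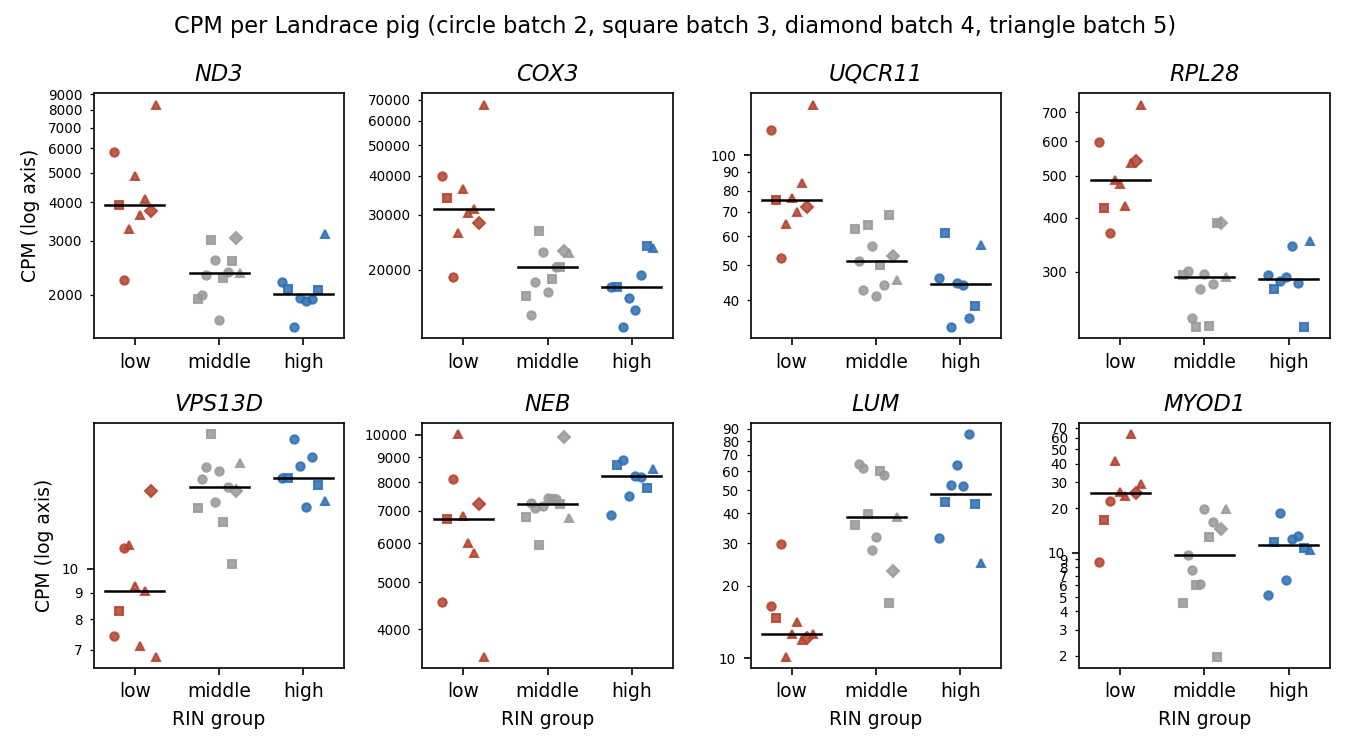
CPM (log axes) of 8 genes in each of 28 Landrace pigs, by RIN group on the horizontal axis, with black lines at the group medians and the marker shape for the slaughter batch. The low RIN pigs lie high for ND3, COX3, UQCR11, RPL28 and MYOD1 and low for VPS13D and LUM, while NEB is spread most widely among the low RIN pigs, from 3518 to 10031 CPM.

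The nuclear genes of the respiratory chain and ATP synthase followed the same direction. Of 61 listed genes 57 were tested, with a median log2 change of 0.50, and 55 of the 57 were above 0. With RIN group alone 46 were called higher and 0 lower (17% and 15.4% of all genes), with RIN as a number 50 and 0 (18% and 18%), and in batch 2 alone 24 and 0 (2.9% and 2.63%). With the 28 pigs less the 2 below RIN 7, 17 were called higher (4.95% of all genes). Without these 2 pigs the median in the model with FCR, age and batch was 0.26, and RIN as a number in the remaining low and high RIN pigs called 0 of 57 (7 at an unadjusted p under 0.05 in edgeR). UQCR11, a small subunit of complex III, had lowest 52.4, median 75.5 and highest 138 CPM at low RIN and lowest 33.8, median 44.4 and highest 61.3 CPM at high RIN. Its log2 change was 0.90 ± 0.25 (SE, edgeR, FDR = 0.176), and 8 of 9 low RIN pigs exceeded all high RIN pigs. COX4I1, a nuclear subunit of complex IV chosen after its values were seen, rose with RIN group alone (log2 change 0.96, FDR = 0.00713), from 234 ± 63.3 CPM (SD, n = 8) to 450 ± 166 CPM (SD, n = 9). The catalytic ATP synthase subunit ATP5F1A differed by 0.23 ± 0.20 (SE), within the spread between pigs (edgeR, FDR = 0.537). As a share of counts the 61 listed genes took 0.482% to 0.651% at low RIN and 0.391% to 0.645% at high RIN, and these ranges overlapped over most of their width. The mean share at low against high RIN was 0.577% against 0.458% in batch 2 and 0.587% against 0.573% in batch 3. In batch 5, with 1 high RIN pig, it was 0.525% against 0.539%, the other way round.

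Mitochondrial ribosomal proteins, which build the ribosome that translates the mitochondrial messengers, had a median log2 change of 0.30 over 58 tested of 64 listed genes. Of them 29 were called higher and 0 lower with RIN group alone (17% and 15.4% of all genes), 31 higher and 1 lower with RIN as a number (18% and 18%), and 13 higher in batch 2 (2.9%). With the 2 pigs below RIN 7 left out, RIN as a number called 0 of 58 (11 higher and 1 lower at an unadjusted p under 0.05 in edgeR). As a share of counts the 64 listed genes averaged 0.128% at low against 0.112% at high RIN in batch 2, and 0.130% against 0.115% in batch 3. In batch 5, with 1 high RIN pig, the share was lower at low RIN, 0.115% against 0.126%. MRPL12 (chromosome 12, 1200458 to 1203817), a large subunit protein, had lowest 52.7, median 72.1 and highest 108 CPM at low RIN and lowest 34.4, median 43.1 and highest 56.3 CPM at high RIN. The log2 change was 0.83 ± 0.22 (SE, edgeR, FDR = 0.176), and 7 of 9 low RIN pigs lay above the high RIN group. MRPS11, of the small subunit, changed by 0.56 ± 0.15 (SE, FDR = 0.176), and by 0.51 with RIN group alone (FDR = 0.00736). The highly expressed MRPL37 differed by 0.36 ± 0.19 (SE, FDR = 0.333) and was not called in either of the other models. Subunits of the mitochondrial import machinery, a list chosen after values were seen, had a median of 0.26 over 19 genes, with 10 called higher and 0 lower with RIN group alone (17% and 15.4% of all genes). Their mean share of counts was not higher at low RIN, at 0.0377% against 0.0380% at high RIN.

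Cytosolic ribosomal proteins were likewise higher at low RIN. Of 51 listed genes 46 were tested, their median log2 change was 0.36, and 44 of the 46 were above 0. With RIN group alone 41 were called higher and 0 lower (17% and 15.4% of all genes), with RIN as a number 37 and 0 (18% and 18%), and in batch 2 alone 6 and 0 (2.9% and 2.63%). With the 2 pigs below RIN 7 left out, RIN as a number called 0 of 46 (27 at an unadjusted p under 0.05 in edgeR, all higher). In the same pigs the count with RIN group alone was 38, and with all other Landrace pigs and RIN as a number it was 26, in a model that called 4.95% of all genes higher. Ribosomal protein genes have many near-identical pseudogenes, so pairs that aligned to several places are missing from their counts.

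RPL28, of the large ribosomal subunit (chromosome 6, 59556586 to 59559337), had lowest 369, median 488 and highest 730 CPM at low RIN and lowest 224, median 289 and highest 353 CPM at high RIN. The groups did not overlap, which was true of 31 genes in this direction (0.29% of genes tested) and 34 in the other (0.318%), 0.608% in all. Its log2 change was 0.72 ± 0.17 (SE, edgeR, FDR = 0.176), and 0.80 with RIN group alone (FDR = 0.00410). RPL10 differed least of the most abundant members, by 0.22 ± 0.11 (SE, FDR = 0.310), and was not called with RIN group alone (FDR = 0.129). As a share of counts the 51 listed genes took 1.02% to 1.60% at low RIN and 1.08% to 1.30% at high RIN, so that the lowest pig of both groups was a low RIN pig.

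**Figure D3:**
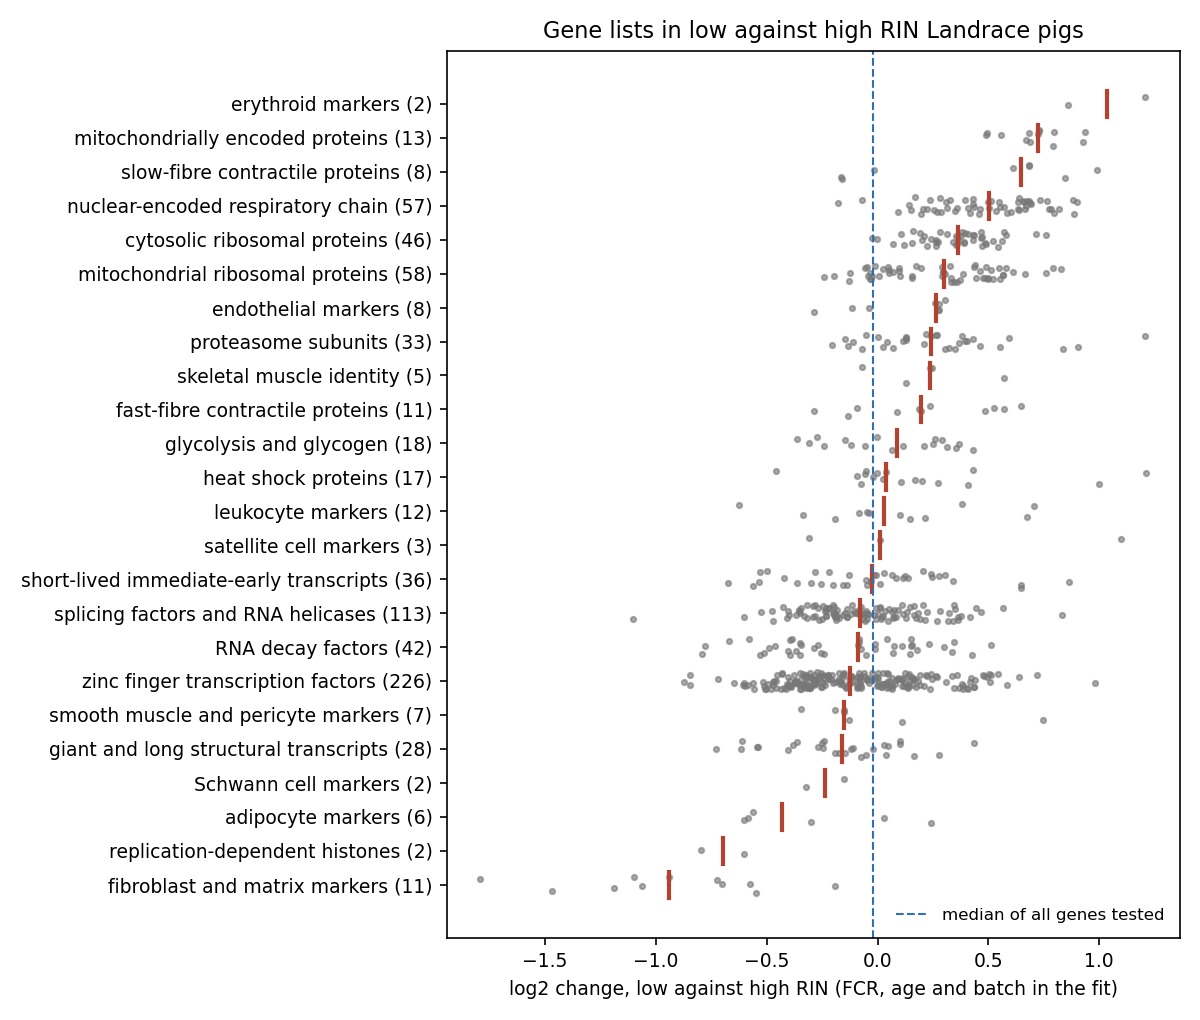
Log2 change at low against high RIN (horizontal axis) of each tested member of 24 gene lists (grey points, number of members in parentheses), with list medians in red and the median of all 10690 genes as the blue dashed line at −0.02. The mitochondrially encoded, respiratory chain and ribosomal protein lists lie to the right, and the fibroblast and matrix list lies farthest to the left at −0.94.

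The median log2 changes for subunits of some other complexes lay on the same side. Proteasome subunits, which form the protease that degrades ubiquitinated proteins, had a median log2 change of 0.24 over 33 genes, with 17 called higher and 0 lower with RIN group alone (17% and 15.4% of all genes) and 19 and 0 with RIN as a number (18% and 18%). The median was 0.10 without the 2 pigs below RIN 7. As a share of counts the proteasome list averaged 0.168% at low against 0.159% at high RIN in batch 2 and 0.157% against 0.154% in batch 3. In batch 5, with 1 high RIN pig, it was 0.150% against 0.163%. PSMB7, a catalytic core subunit, went from 54.0 ± 5.29 CPM (SD, n = 8) at high RIN to 78.1 ± 21.1 CPM (SD, n = 9) at low RIN (log2 change 0.59 ± 0.20, SE, edgeR, FDR = 0.193, RIN group alone FDR = 0.0122). A pair of lists chosen after values were seen gave similar medians: 0.34 for 16 core proteins of the spliceosomal ribonucleoproteins and 0.20 for 11 subunits of RNA polymerase II. With RIN group alone 10 were called higher and 0 lower in the first and 4 and 1 in the second (17% and 15.4% of all genes). The mean share of counts was 0.0133% at low against 0.0123% at high RIN in the first list. In the second it was 0.0297% against 0.0318%, the other way round. Within RNA polymerase II the small subunit POLR2I differed by 0.65 ± 0.22 (SE, FDR = 0.189) and the large subunit POLR2B by −0.32 ± 0.19 (SE, FDR = 0.370). With RIN as a number both were called, in opposite directions (FDR = 0.00148 for POLR2I and FDR = 0.00514 for POLR2B).

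The direction of change followed the length of the gene. RefSeq gave a gene span, which includes introns, for 8912 of the 10690 genes (83.4%), and these were split into 5 classes of equal size. The median log2 change was 0.18 in the class of shortest genes (552 to 10470 bp), then 0.04, −0.07 and −0.14, and −0.16 in the class of longest genes (92423 to 2622506 bp). With RIN group alone 625 genes were called higher (35.1%) and 95 lower (5.33%) in the class of shortest genes. In the class of longest genes 107 were called higher (6%) and 475 lower (26.6%). Of all genes tested 17% were called higher and 15.4% lower in that model. The interquartile ranges of the classes overlapped widely, and the Spearman correlation of span and log2 change across the 8912 genes, which share the same libraries and are not independent, was −0.36. The longest and shortest classes differed by 0.34 in median, by 0.40 with RIN group alone, by 0.21 without the 2 pigs below RIN 7 and by 0.33 when scaled by library size only.

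Per pig, the median deviation of the shortest genes minus that of the longest genes was lowest −0.08, median 0.16 and highest 0.56 on the log2 scale in the low RIN group. In the high RIN group it was lowest −0.42, median −0.20 and highest 0.07, and in the middle RIN group the median was −0.14. Only high RIN pig 8, in batch 5, lay above any low RIN pig. Low RIN pigs 3 and 4, both at RIN 7.7, were below 0. In batch 2 the means were 0.15 and −0.25, in batch 3 they were 0.16 and −0.18, and in batch 5 they were 0.18 and 0.07. Transcript length without introns, exon number and base composition were not analysed here.

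**Figure D4:**
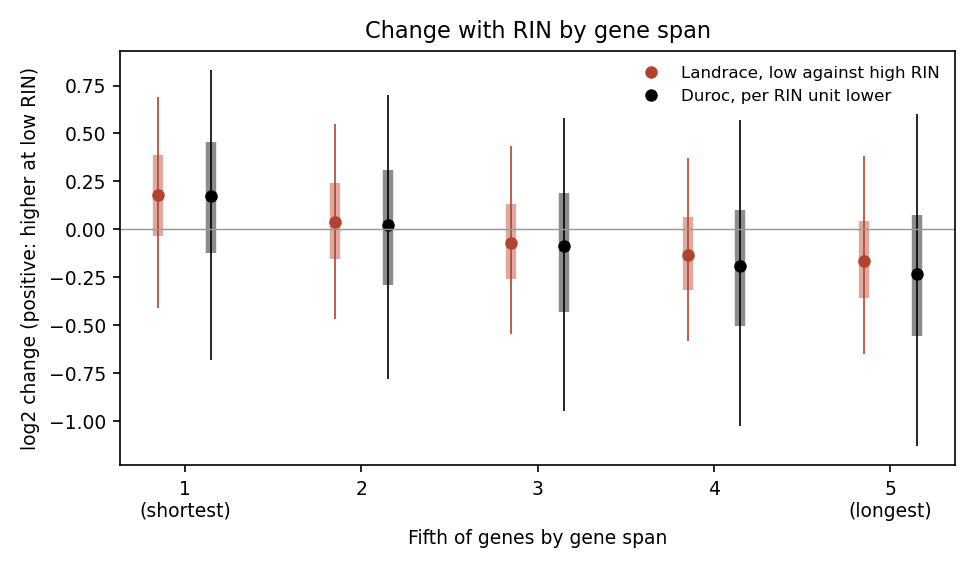
Log2 change (vertical axis, positive is higher at low RIN) in 5 equal classes of genes by gene span, from shortest to longest, for low against high RIN Landrace pigs (red) and per unit of falling RIN in Duroc pigs (black). Points are medians, thick bars interquartile ranges and thin lines the 5 to 95 percentile range, and the Landrace medians fall from 0.18 to −0.16.

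Long structural transcripts fell on the other side from the compact housekeeping genes, but less uniformly. The list of giant and long genes held 28 genes with a median log2 change of −0.16. With RIN group alone 8 were called lower and 1 higher (15.4% and 17% of all genes), and with RIN as a number 13 lower and 0 higher (18% and 18%). The median was −0.068 without the 2 pigs below RIN 7. VPS13D, a large lipid transfer protein (chromosome 6, 72256865 to 72514256), had lowest 6.79, median 9.07 and highest 14.1 CPM at low RIN and lowest 13.1, median 14.9 and highest 17.7 CPM at high RIN. Of the 9 low RIN pigs 8 lay below the high RIN group, and the log2 change was −0.73 ± 0.15 (SE, edgeR, FDR = 0.176, RIN group alone FDR = 0.00440). ANK3, a membrane-cytoskeleton adaptor, changed by −0.54 ± 0.16 (SE, FDR = 0.176), and 7 of 9 low RIN pigs lay below the high RIN group. NEB, the giant thin-filament protein nebulin, had lowest 3518, median 6728 and highest 10031 CPM at low RIN against lowest 6870, median 8231 and highest 8864 CPM at high RIN, a change of −0.41 ± 0.22 (SE, FDR = 0.337) that was called only with RIN as a number (FDR = 0.00413 in the 17 pigs). In contrast FLNC, the muscle filamin, differed by 0.17 ± 0.28 (SE, FDR = 0.764), and ANK1 was called higher with RIN group alone (log2 change 0.29, FDR = 0.0245).

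Regulators encoded in the nucleus had median log2 changes below 0. Zinc finger transcription factors had a median of −0.13 over 226 tested of 294 listed genes. Of these 30 were called higher and 34 lower with RIN group alone, and 21 and 56 with RIN as a number, shares close to or below those of all genes except for the lower calls with RIN as a number. The median was −0.08 for 113 splicing factors and RNA helicases. Of them 17 were called higher and 12 lower with RIN group alone (17% and 15.4% of all genes). For 42 RNA decay factors the median was −0.09. Of these 6 were called higher and 14 lower with RIN group alone, and 6 and 15 with RIN as a number (18% and 18%). The lower calls were a larger share than among all genes, but RIN as a number without the 2 pigs below RIN 7 called 0 of 42. XRN2, the nuclear 5′ to 3′ exonuclease (chromosome 17, 29107641 to 29193500), had lowest 11.8, median 13.2 and highest 14.9 CPM at low RIN and lowest 15.4, median 17.4 and highest 21.7 CPM at high RIN, without overlap. Its log2 change was −0.35 ± 0.10 (SE, edgeR, FDR = 0.176, RIN group alone FDR = 0.00495). SETDB1, a histone H3 lysine methyltransferase chosen after its values were seen, also had no overlap, at lowest 4.78, median 9.65 and highest 11.97 CPM at low RIN against lowest 12.6, median 13.6 and highest 14.3 CPM at high RIN. Ubiquitin-specific proteases, a list chosen after values were seen, had a median of −0.17 over 40 genes. With RIN group alone 1 was called higher and 7 lower, the latter a share close to the 15.4% of all genes. With RIN as a number 3 were called higher and 17 lower (18% and 18% of all genes). Without the 2 pigs below RIN 7, RIN as a number called 0 of 41.

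For short-lived transcripts the direction depended on the pigs with the lowest RIN. The 36 immediate-early and other unstable transcripts that were tested, of 41 listed, had a median log2 change of −0.02, the same as all genes. Without the 2 pigs below RIN 7 the median was −0.23, with 26 of 36 below 0, and with RIN as a number in the 17 pigs it went from 0.02 to −0.39 without these 2 pigs. Few members were called: 2 higher and 3 lower with RIN group alone (17% and 15.4% of all genes), 3 and 2 with RIN as a number (18% and 18%), and 0 of 36 with RIN as a number without the 2 pigs (7 lower and 0 higher at an unadjusted p under 0.05 in edgeR). FOS, an immediate-early transcription factor, ranged from 2.68 to 93.4 CPM at low RIN and from 5.90 to 80.7 CPM at high RIN, and its change of −0.56 ± 0.75 (SE, edgeR, FDR = 0.705) was within the spread between pigs. JUN (−0.13 ± 0.23, SE, FDR = 0.780) and MCL1 (−0.30 ± 0.21, SE, FDR = 0.454) were likewise within it. KLF6, a Krüppel-like factor, had lowest 0.368, median 1.12 and highest 2.55 CPM at low RIN and lowest 1.73, median 3.24 and highest 5.04 CPM at high RIN. It fell with RIN group alone (log2 change −1.31, FDR = 0.00841) and with RIN as a number (−0.52 per RIN, FDR = 0.0817), but not as a group with FCR, age and batch in the model (−0.67 ± 0.29, SE, FDR = 0.247). The summed share of the list was 0.0731% to 0.232% at low RIN and 0.125% to 0.248% at high RIN.

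For nuclear-retained RNAs such as MALAT1 and NEAT1 no gene in the tables was matched by symbol, and no value is given. Genes that RefSeq classes as lncRNA had a median log2 change of 0.12 over 35 tested genes, with 13 called higher and 7 lower with RIN group alone (17% and 15.4% of all genes). As a share of counts this class averaged less at low RIN, 0.115% against 0.148% at high RIN. Scaled by library size only, its median was −0.14, beside −0.27 for all genes. The 1229 tested genes without a symbol had a median of 0.07, with 288 called higher and 140 lower with RIN group alone. Of the histone genes, the linker histone H1-3 differed by −0.80 ± 0.22 (SE, edgeR, FDR = 0.176) and was called lower with RIN group alone (FDR = 0.0755).

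Of all the lists, fibroblast and extracellular matrix genes had the lowest median log2 change. Of 12 listed genes 11 were tested, all 11 were below 0 and the median was −0.94. With RIN group alone 7 were called lower and 0 higher (15.4% and 17% of all genes), and in batch 2 alone 6 and 0 (2.63% of all genes were lower there). With RIN as a number 3 were called lower and 0 higher (18% and 18% of all genes). LUM, the collagen-binding proteoglycan lumican (chromosome 5, 91748871 to 91756381), had lowest 10.1, median 12.6 and highest 29.8 CPM at low RIN and lowest 24.8, median 48.4 and highest 85.4 CPM at high RIN. All low RIN pigs but pig 3 lay below the high RIN group, and the log2 change was −1.10 ± 0.23 (SE, edgeR, FDR = 0.176, RIN group alone −1.74, FDR = 0.00410). FBN1, the microfibril protein fibrillin, had lowest 2.95, median 6.70 and highest 16.8 CPM against lowest 10.2, median 31.9 and highest 69.2 CPM, with a log2 change of −1.47 ± 0.41 (SE, FDR = 0.176). COL3A1, a fibrillar collagen chosen after its values were seen, went from 865 ± 363 CPM (SD, n = 8) at high RIN to 290 ± 109 CPM (SD, n = 9) at low RIN (−1.06 ± 0.33, SE, FDR = 0.177).

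The matrix values also followed the batch. COL3A1 averaged 427 CPM at low and 1046 CPM at high RIN in batch 2, and 271 against 299 CPM in batch 5, where the high RIN group was 1 pig. The summed share of the 12 listed genes was lowest 0.0587%, median 0.0783% and highest 1.18% in the low RIN group and lowest 0.0996%, median 0.240% and highest 0.482% in the high RIN group. The highest value belonged to low RIN pig 6, and the next highest low RIN pig was at 0.151%. In pig 6 COL1A1, a chain of type I collagen chosen after its values were seen, reached 9295 CPM, against 153 CPM in the lowest and 247 CPM in the median low RIN pig. With RIN as a number and without the 2 pigs below RIN 7, the median of the 11 tested genes was 0.06 and 5 of the 11 were below 0. Whether fewer fibroblasts or less matrix RNA per cell lay behind these values cannot be told apart in whole muscle, and the same holds for the other cell type markers.

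**Figure D5:**
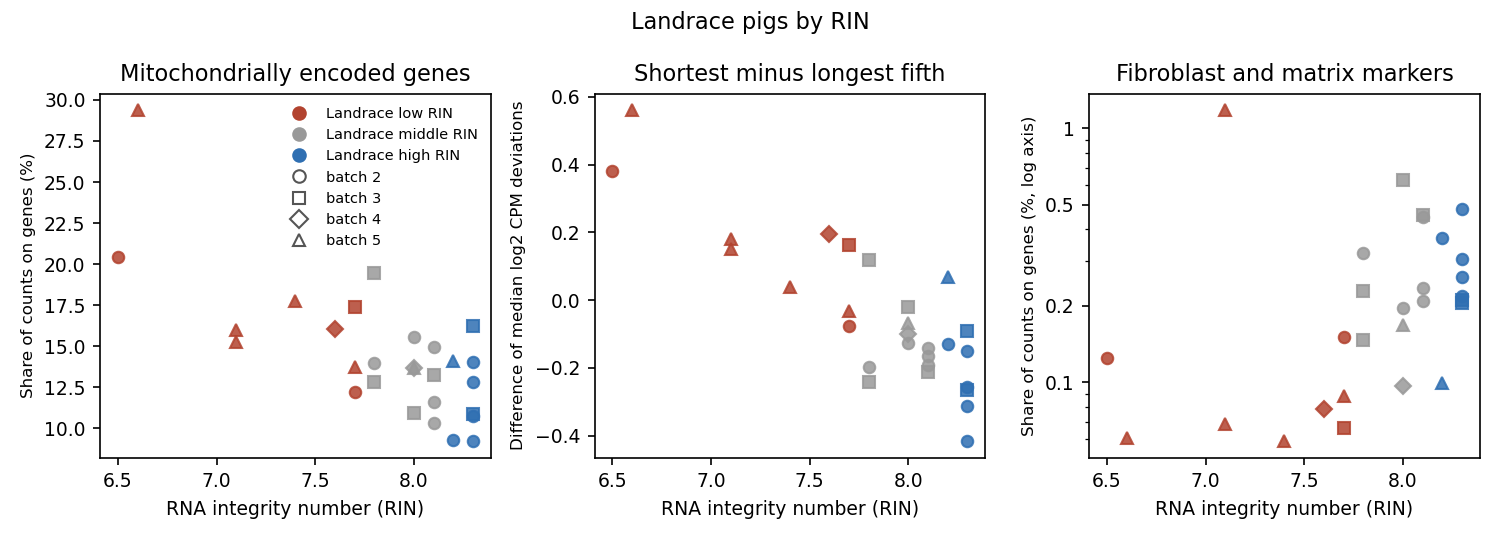
Per-pig values against RIN (horizontal axes) in 28 Landrace pigs, coloured by RIN group with the marker shape for the batch. Left, summed share of counts of the 13 mitochondrially encoded genes. Middle, median log2 CPM deviation of the shortest minus the longest class of genes. Right, summed share of the 12 listed fibroblast and matrix genes on a log axis, with low RIN pig 6 at 1.18%.

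Lists chosen after values were seen gave the matrix in more detail. Of 17 tested collagen chains 8 were called lower and 0 higher with RIN group alone (median −0.70), of 7 laminin chains 3 and 0 (median −0.41), and of 15 proteoglycans and microfibril proteins 8 lower and 1 higher (median −0.68). Of all genes 15.4% were lower and 17% higher there. With RIN as a number 3 lower and 1 higher, 1 and 0, and 3 and 0 were called (18% and 18% of all genes). With RIN group alone the proteoglycan called higher was FMOD (log2 change 2.44, FDR = 0.0905), at a median of 3.32 CPM in the low RIN and 7.32 CPM in the high RIN group, so that mean and median stood in opposite order. LAMC1, a laminin chain of basement membranes, stood at 88.1 ± 13.6 CPM (SD, n = 9) against 132 ± 22.4 CPM (SD, n = 8), and was called lower with RIN group alone (FDR = 0.0049) and with RIN as a number (FDR = 0.0115).

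Markers of other cell types were mixed. Of 12 leukocyte markers 2 were called lower and 0 higher with RIN group alone (15.4% and 17% of all genes). With RIN as a number 0 were called lower and 3 higher (18% and 18% of all genes), and the median log2 change was 0.03. The macrophage receptor CD163 was lower with RIN group alone (−1.35, FDR = 0.0147), while the invariant chain CD74 was higher with RIN as a number (0.75 per RIN, FDR = 0.00107). The summed leukocyte share was 0.0104% to 0.0349% at low RIN and 0.0122% to 0.0317% at high RIN. The 8 endothelial markers had a median of 0.26, with 2 called lower with RIN group alone and 2 called higher with RIN as a number. The median was −0.43 for 6 adipocyte markers (1 higher and 2 lower with RIN group alone) and −0.15 for 7 smooth muscle and pericyte markers (1 higher and 0 lower). These few calls are to be read against the same shares of all genes. Of 2 erythroid markers tested HBB, a globin chain, ranged from 11.7 to 277 CPM at low RIN and from 16.0 to 66.1 CPM at high RIN (1.21 ± 0.65, SE, edgeR, FDR = 0.337, RIN group alone FDR = 0.0497). The 2 Schwann cell markers tested had a median of −0.24, with none called with RIN group alone (2 tested, 0 higher and 0 lower). How far these cell types enter the gene-level values was not tested.

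Contractile genes of the muscle fibre were mixed. Fast-fibre contractile genes had a median log2 change of 0.20 over 11 genes, with 4 called higher and 0 lower with RIN group alone (17% and 15.4% of all genes) and 3 higher and 2 lower with RIN as a number (18% and 18%). The 2 called lower were ATP2A1, the calcium pump of fast fibres (−0.61 per RIN, FDR = 0.0400), and ACTN3, the fast-fibre alpha-actinin (−0.38 per RIN, FDR = 0.0803), both named after their values were seen. The summed share of the list was 17.6% ± 1.55 (SD, n = 9) at low RIN and 18.4% ± 1.59 (SD, n = 8) at high RIN. TNNC2, fast troponin C, had lowest 11891, median 14335 and highest 20322 CPM at low RIN and lowest 7206, median 9477 and highest 14249 CPM at high RIN (0.57 ± 0.18, SE, edgeR, FDR = 0.177, RIN group alone FDR = 0.00713). The high RIN pig at 14249 CPM was the batch 5 pig. Slow troponin I, TNNI1, had lowest 399, median 827 and highest 1911 CPM against lowest 167, median 620 and highest 948 CPM (0.99 ± 0.45, SE, FDR = 0.265), and without the 2 pigs below RIN 7 its change with RIN group alone was 0.41 (FDR = 0.364). Skeletal actin ACTA1 differed by 0.24 ± 0.15 (SE, FDR = 0.3903) and creatine kinase CKM, added after values were seen, by 0.13 ± 0.14 (SE, FDR = 0.637).

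Glycolysis and glycogen genes had a median of 0.09 over 18 tested genes, with 4 called higher and 0 lower with RIN group alone (17% and 15.4% of all genes) and 2 higher and 5 lower with RIN as a number (18% and 18%). The aldolase ALDOA went from 42460 ± 5308 CPM (SD, n = 8) to 55889 ± 6800 CPM (SD, n = 9) at low RIN (0.43 ± 0.14, SE, edgeR, FDR = 0.184, RIN group alone FDR = 0.0139). Of 17 heat shock proteins 3 were called higher and 0 lower with RIN group alone, the former a share close to the 17% of all genes, and the median was 0.04. CRYAB, a small heat shock protein abundant in oxidative fibres, had lowest 114, median 222 and highest 832 CPM at low RIN and lowest 78.2, median 144 and highest 160 CPM at high RIN (1.21 ± 0.40, SE, FDR = 0.189). MYOD1, the myogenic transcription factor, had lowest 8.59, median 25.4 and highest 63.4 CPM at low RIN and lowest 5.20, median 11.3 and highest 18.5 CPM at high RIN (1.10 ± 0.36, SE, FDR = 0.184, RIN group alone FDR = 0.00747). It was not called with RIN as a number (FDR = 0.414), and in batch 5 it averaged 36.9 CPM in the low RIN pigs, against 15.5 and 16.8 CPM in those of batches 2 and 3. The satellite cell markers PAX7 (−0.31 ± 0.43, SE, FDR = 0.715) and MYF5 (0.01 ± 0.41, SE, FDR = 0.990) did not differ beyond the spread between pigs.

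The pigs between the groups lay nearer to the high RIN group for some genes and not for others. Median levels in the 11 middle RIN pigs were 2354 CPM for ND3, 291 CPM for RPL28, 51.3 CPM for UQCR11, 14.3 CPM for VPS13D and 38.6 CPM for LUM. Each lay between the 2 group medians, and nearer to that of the high RIN group. For NEB the middle median of 7224 CPM was nearer to the low RIN median, and for MYOD1 the middle median of 9.59 CPM lay below both group medians. At the edges of the rule, the 3 low RIN pigs at RIN 7.7 had 8.94%, 9.02% and 9.82% of pairs on no gene, and the 3 middle RIN pigs at 7.8 had 8.74%, 9.18% and 11.2%. On the other edge the 4 middle RIN pigs at 8.1 had 7.77% to 8.90% and the 2 high RIN pigs at 8.2 had 7.53% and 8.95%.

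The Duroc pigs, which the rule did not use, gave the same measure in other animals. With RIN as a number, FCR, age and batch in the model, edgeR called 0 of 10509 genes, with 1824 at an unadjusted p under 0.05, and RIN alone called 2886 (27.5%, 1360 higher at 12.9% and 1526 lower at 14.5%). The directions in both breeds were set side by side: of 1905 genes called higher with falling RIN in the 17 Landrace pigs 90.8% were positive in Duroc, where 46.2% of all genes were, and of 1866 called lower 95.3% were negative, where 53.8% of all genes were. Medians per RIN were 1.34 for the mitochondrially encoded genes, 0.36 for the nuclear respiratory chain, 0.34 for mitochondrial and 0.24 for cytosolic ribosomal proteins, −0.49 for giant and long genes, −0.51 for short-lived transcripts and −0.77 for matrix genes, beside −0.05 for all genes. Of the 36 short-lived transcripts 23 were below 0, and RIN alone called 1 higher and 10 lower in Duroc. Much of this rested on Duroc pig 10, at RIN 7.0, with 14.9% of pairs on no gene and 30.8% of counts on the mitochondrially encoded genes. Without it the shares of the same direction were 68.6% and 55.8%, where 50.0% of all genes were positive and 50.0% negative. For the genes called with RIN group alone they were 74.0% and 70.9%. Without this pig edgeR called 0 genes with the covariates (207 of 10745 at an unadjusted p under 0.05) and 0 with RIN alone (1094 at an unadjusted p under 0.05).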

How the data were processed

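Muscle RNA of 41 male pigs was measured by RNA-seq. After trimming by Trimmomatic 0.39, the authors ran STAR 2.7.1a against the Sscrofa11.1 genome and deposited the raw counts that it gives for each of 25880 genes, without normalization or a filter. The unstranded count column was used, so overlapping and antisense genes cannot be told apart. The 4 rows that name no gene were used as read pair classes only. The other pairs, on genes, were 69.9% to 80.9% of each of the 17 libraries, or 22188911 to 25954816 counts. All 136 pairs of the 17 libraries differed by more than counting noise (lowest chi-squared per degree of freedom 32.6).

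Groups came from the breed and RIN labels. Following the study's model within a breed, with RIN group in place of RIN, counts were fitted with edgeR 4.0.16 (quasi-likelihood test, legacy form, TMM, filterByExpr with a minimum count of 10) in R 4.3.3 on RIN group, FCR, age and slaughter batch, with Benjamini-Hochberg FDR and a threshold of 0.1. The SE is the absolute log2 change divided by the root of the F statistic. CPM values used TMM factors over 41 pigs. Single measures were tested with exact permutation tests or 100000 permutations. DESeq2 1.42.0 and limma 3.58.1 were alternatives, as were other normalizations, filters, covariates and sets of pigs. The fits were tested on simulated data. Summaries used Python 3.11.15, pandas 2.3.3 and SciPy 1.17.1, and plots matplotlib 3.10.9.

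The pigs, gene lists and tests were chosen with earlier results of these data known. Lists are described by counts and medians, without a test. Genes were named by a rule: the 8 with the smallest p in each direction at FDR under 0.1 (1 gene), the 3 most abundant and the 2 with the smallest p of the 10 main lists, the 2 with the smallest p of other lists, and the 3 most abundant of all. Of the other genes given, ACTN3, ANK1, ATP2A1, CD163, CKM, COL1A1, COL3A1, COX4I1, FMOD, FOS, LAMC1, MYF5, ND5, ND6, POLR2B, POLR2I and SETDB1 were chosen after values were seen. Of the 25880 genes, 14857 had a symbol and 13707 of those one RefSeq row (Sscrofa11.1), which gave chromosome positions and spans. Some genes that the rule names are not reported here.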

Additional observations from a re-analysis of the deposited data

Results flagged for a closer look

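In groups of 4 to 10 pigs the highest or lowest pig was far from the others of its group in 15 of 78 groups of values, where chance alone gives about 1 in 20 groups. Low RIN pig 9 (RIN 6.6, batch 5) stood apart in 6 of them. It had 16.2% of read pairs on no gene, with the next low RIN pig at 12.01%, and 69.9% of pairs and 22188911 counts on genes. Its mitochondrially encoded genes took 29.4% of counts, with COX3 at 67560 CPM and ATP6 at 66731 CPM. High RIN pig 8 (RIN 8.2), the only high RIN pig of batch 5, stood apart in 4: 8.12% of pairs overlapped more than 1 gene, 12301 genes had at least 5 counts, ND3 was at 3150 CPM and CD74 at 111 CPM.

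The other flags concern single pigs. High RIN pig 7 (batch 3) had 10.9% of pairs on no gene. The fibroblast and matrix markers took 1.18% of counts in low RIN pig 6 and at most 0.151% in the other low RIN pigs. TMT1B was at 16.9 CPM in low RIN pig 8, LUM at 29.8 CPM in low RIN pig 3 and CRYAB at 832 CPM in low RIN pig 1.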

How the results depend on the processing

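The count of genes called depended on the model. It was 1 as reported. It was 248 when scaled by library size only (6 higher and 242 lower), with an all-gene median of −0.27, 2 without a filter, 805 with DESeq2 on genes with at least 5 counts in every pig, 3463 with RIN group only, 697 with batch only, 1549 with FCR and age but no batch, 3857 with RIN as a number in the 17 pigs, 4726 in all 28 Landrace pigs, 2445 with 3 RIN groups in all 28, 603 in batch 2 only and 0 with a low RIN group of 7.4 or less. Among alternatives chosen after seeing the data it was 2731 with RIN group only and 850 with RIN as a number in all 28 pigs, both without the 2 pigs below RIN 7. Without each pig in turn it was 0 to 31 (0 without low RIN pig 1, high RIN pig 1 or high RIN pig 7, 12 without high RIN pig 8, 31 without low RIN pig 9). The 3857 became 1 without the 2 pigs below RIN 7, 1125 without low RIN pig 1, and 1125 to 4037 without each pig. In Duroc, 0 became 2886 with RIN only. The cause of these differences was not tested.

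Scaled by library size only, the list medians were 0.22 for the nuclear respiratory chain, 0.10 for cytosolic and 0.055 for mitochondrial ribosomal proteins, −0.027 for the proteasome and −0.40 for giant and long genes, each to be read against −0.27. Read the same way, they were 0.090 for the core proteins of the spliceosomal ribonucleoproteins, 0.0024 for mitochondrial import and −0.061 for RNA polymerase II. Permuted within batches, the difference in pairs on no gene of 2.10 (p = 0.0582, exact permutation) and in genes with at least 5 counts of −481 (p = 0.0582) no longer passed, while that in unaligned pairs of 0.180 did (p = 0.0476). With 1 count as the minimum the difference in genes was −255 (p = 0.114, exact permutation). Without each pig in turn, pairs aligned to several places differed by 0.160 to 0.306 and unaligned pairs by 0.142 to 0.229 percentage points, past the threshold in some cases. Of the 430 values of 24 named genes under 18 alternatives, 271 kept their side of the threshold, 158 newly passed it and 1 no longer passed, and none changed direction (0 of 430). The naming rule picks genes partly by a small p in the same pigs, and most alternatives refit these pigs. The kept direction is therefore not independent support. Summed exon length was not run, for lack of exons in the tables used. No paired analysis was possible because the replicate numbers were given in accession order and pair no pigs. Counting depth limits mainly genes of few counts, such as KLF6.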
